A study of Mus musculus with 4 samples.

Results

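Art1, Slc38a3, C1qtnf9, Csdc2 and Myom2 are 5 genes that were chosen by symbol, among 32285 measured features, because their levels in a mouse heart section 14 days after neonatal cryoinjury were high against the section at 1 day. Their values over 4 sections and within each section are described here. Expression was measured with 10x Genomics Visium, in which a frozen section lies on a grid of barcoded capture spots, each a small region that can hold several cells. The animals were ICR mice, an outbred stock with no labelled genetic change, and each had the left ventricular apex touched with a cooled probe for 5 s at postnatal day 1. Hearts were taken 1, 4, 7 and 14 days later (d1, d4, d7 and d14), at postnatal days 2, 5, 8 and 15, and 1 section of 10 µm stands for each day. All 4 groups were injured, and no uninjured heart is labelled, so time after injury and age cannot be told apart.

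During the first weeks after birth cardiomyocytes leave the cell cycle, enlarge, and exchange fetal for adult forms of sarcomere, channel and metabolic proteins. The list of these 5 genes was labelled late-rising cardiomyocyte genes. They encode proteins of different kinds. Art1 encodes an ADP-ribosyltransferase anchored to the surface of muscle cells, which attaches ADP-ribose to arginines of proteins such as integrin alpha7. Slc38a3 encodes SNAT3, a sodium-coupled transporter of glutamine, histidine and asparagine. C1qtnf9 encodes CTRP9, a secreted relative of adiponectin. Csdc2 encodes an RNA-binding protein with a cold-shock domain, described as PIPPin in rat brain. Myom2 encodes M-protein, which crosslinks myosin filaments at the M-band in the middle of the sarcomere.

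The 5 genes lie on different mouse chromosomes (GRCm38, GENCODE vM21). Art1 (ENSMUSG00000030996) is at chr7:102101743-102113933 on the plus strand and overlaps Art5 and Chrna10 on the minus strand. C1qtnf9 (ENSMUSG00000071347) is at chr14:60768134-60780869, plus strand, and overlaps the antisense gene Mipepos. Slc38a3 (ENSMUSG00000010064) is at chr9:107650634-107669530 on the minus strand. Csdc2 (ENSMUSG00000042109) is at chr15:81936759-81950941 and Myom2 (ENSMUSG00000031461) at chr8:15057653-15133541, both on the plus strand, and Myom2 contains the minus-strand pseudogene Gm15678. Whether the counting used strand is not given in the sources used here. In the same sections Art5 had 13, 15, 24 and 39 UMIs at d1, d4, d7 and d14, Chrna10 had at most 2 and Mipepos had 0. All 5 genes are protein-coding in the annotation.

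Promoter sequences of 2 of the 5 genes, Art1 and C1qtnf9, were given in the RefSeq table used (GRCm38.p6). They are shown because the largest log2 ratios of these genes fell at different steps. Each is the 250 bases before the annotated start, on the plus strand, with chr7:102101493-102101742 for Art1 and chr14:60767884-60768133 for C1qtnf9. Capitals mark matches to the motifs searched on both strands.
Art1 promoter: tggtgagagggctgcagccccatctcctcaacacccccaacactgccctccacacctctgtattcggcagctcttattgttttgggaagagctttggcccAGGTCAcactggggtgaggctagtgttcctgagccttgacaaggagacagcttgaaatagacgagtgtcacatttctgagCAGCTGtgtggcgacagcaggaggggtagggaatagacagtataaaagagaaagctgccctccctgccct
C1qtnf9 promoter: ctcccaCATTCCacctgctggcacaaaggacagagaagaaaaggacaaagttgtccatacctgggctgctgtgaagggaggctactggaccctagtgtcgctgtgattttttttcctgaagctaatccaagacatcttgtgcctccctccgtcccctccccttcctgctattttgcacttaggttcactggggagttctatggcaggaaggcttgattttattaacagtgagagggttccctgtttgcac
The Art1 window holds the E-box CAGCTG, a core bound by muscle basic helix-loop-helix factors, with its first base 70 bases before the start. It also holds AGGTCA, the core bound by nuclear receptors, 150 bases before the start. The C1qtnf9 window holds CATTCC, the core of the M-CAT element bound by Tead factors, 244 bases before the start. No match overlapped another. Neither window holds AGATAA, the core of Gata factor sites. Neither window holds the CCAAT box. Of 32851 promoter windows of the same length, 13.0% held the E-box, 14.0% the nuclear receptor core, 12.6% the Tead core, 9.99% the Gata core and 33.8% the CCAAT box. These matches describe the letters only.

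Spots with at least 500 UMIs (unique molecular identifiers, each marking 1 captured RNA molecule) were kept: 445, 662, 774 and 1175 spots in order of time. The matrices held 3419864 to 6358894 UMIs, and the median per spot was 7810 to 8028 at d1 to d7 and 3770 at d14. The d7 heart also differed in sex-linked genes, with 1 UMI of the X-inactivation gene Xist and 460 of the Y-linked Eif2s3y, against 158 to 341 and 0 in the other hearts. A list of 11 cardiomyocyte reference genes (Actc1, Tnnt2, Ttn and others) was detected in full in every section and made up 4.09% to 5.44% of UMIs. Between 246 and 752 spot barcodes were shared by any pair of sections, which follows from the fixed barcodes of the array. Levels are CPM, the UMIs of a gene per 1000000 UMIs summed over a section's spots, without haemoglobin and mitochondrially encoded genes. Intervals are 95% and cover counting error only. With 1 section a day there is no replicate check and no test between days.

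By the size of the log2 ratio at each step, the word late-rising held for 3 of the 5 genes. On that measure Art1, Slc38a3 and Csdc2 had their largest step between d7 and d14, and C1qtnf9 had its largest between d1 and d4. Myom2 had reached its plateau by d4. In CPM itself, C1qtnf9 also gained most between d7 and d14. The step from d7 to d14 covers more days than each step before it. Steps were not divided by their days, so a larger step is not a faster rise. A gene was called at least 2-fold higher or lower between sections when it had 20 CPM in 1 of them, a ratio of at least 2 or at most 0.5, and an interval without 1. Against d1, 5 of the 5 genes were higher at d14, where 7.32% of the 6982 genes tested were called higher. That contrast chose the genes and is given only as a description. Their ranks among the 6982 ratios were 12 for Slc38a3, 16 for Art1, 20 for Csdc2, 22 for C1qtnf9 and 462 for Myom2.

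**Figure D1:**
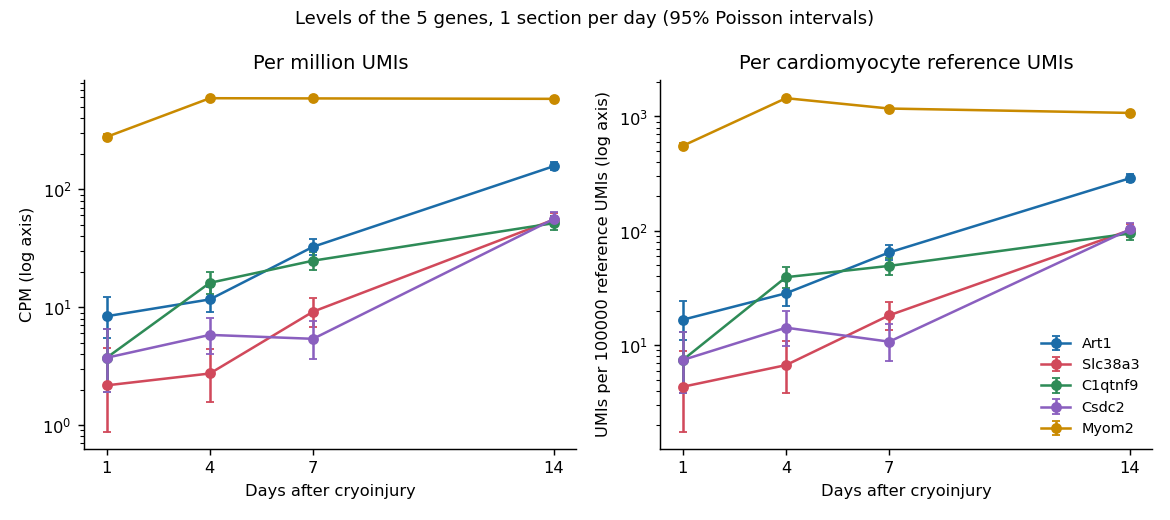
Levels of the 5 genes in the d1, d4, d7 and d14 sections, as CPM on the left and as UMIs per 100000 UMIs of 11 cardiomyocyte reference genes on the right, both on log axes, with 95% Poisson intervals. Art1, Slc38a3 and Csdc2 climb most between d7 and d14, and Myom2 lies at 592, 589 and 584 CPM from d4 on.

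Art1 stood at 8.37, 11.6, 32.5 and 157 CPM in the d1, d4, d7 and d14 sections, from 27, 68, 181 and 676 UMIs. The d1 and d4 intervals (5.52 to 12.2 and 9.03 to 14.7) overlapped, and the later levels lay above both. Art1 was 2.79-fold higher at d7 than at d4 (interval 2.10 to 3.75) and 4.83-fold higher at d14 than at d7 (4.09 to 5.72). It was the only gene of the 5 called higher at d7 against d4, where 3 of them could be tested and 0.723% of all 7196 genes tested were called higher. Of its log2 rise over the 4 sections, 53.7% fell between d7 and d14, the step that covers the most days.

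Slc38a3 was at 2.17, 2.74, 9.16 and 55.3 CPM in the d1, d4, d7 and d14 sections, from 7, 16, 51 and 238 UMIs. It was 6.04-fold higher at d14 than at d7 (4.45 to 8.34). The ratio of d7 to d4 was 3.35 (1.88 to 6.29), but neither section reached 20 CPM, so no call was made. Its course was the closest to that of Art1 among 7363 genes, by a Euclidean distance of 0.221 between the log2(CPM + 1) profiles centred on each gene's mean, over 4 sections. Art1 was likewise the nearest gene to Slc38a3. Both were chosen by their d14 level against d1, and those levels enter the distance, so their nearness is a description only.

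In order of time, the d1, d4, d7 and d14 sections held 3.72, 5.82, 5.39 and 56.0 CPM of Csdc2, from 12, 34, 30 and 241 UMIs. Its first 3 levels had overlapping intervals, and the d14 level stood alone. The d14 level was 10.4-fold that at d7 (7.09 to 15.7), and this step made up 86.4% of its log2 rise. In the 50% of spots richest in cardiomyocyte reference UMIs its ratio of d14 to d1 was 49.9, against 15.04 over all spots. The whole d1 section held only 12 UMIs of Csdc2, so nothing is read from this difference.

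C1qtnf9 reached 3.72, 16.1, 24.8 and 51.6 CPM in the d1, d4, d7 and d14 sections, from 12, 94, 138 and 222 UMIs. Each section had a higher level than the section before it, and none of the 4 intervals overlapped, from 1.92 to 6.50 CPM at d1 and 13.0 to 19.7 CPM at d4 on. The ratio of d4 to d1 was 4.32 (2.36 to 8.66), which made up 55.7% of its log2 rise, although both sections were under 20 CPM and no call was made. It was 2.08-fold higher at d14 than at d7 (1.68 to 2.59). That call ended in the 50% of spots richest in cardiomyocyte reference UMIs, where the ratio was 1.79, and per cardiomyocyte reference UMI, where it was 1.92.

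Myom2 was present at 278, 592, 589 and 584 CPM in the d1, d4, d7 and d14 sections, from 896, 3459, 3282 and 2516 UMIs. The intervals of the last 3 levels overlapped, and d1 lay below all of them. It was 2.13-fold higher at d4 than at d1 (1.98 to 2.29), the only gene of the 5 that could be tested at that step, where 4.69% of 7276 genes were called higher. With TMM scaling, which moved the median log2 ratio of all genes tested at that step by -0.19, its ratio was 1.87 and the call ended. Its ratio was 0.996 for d7 over d4 (0.949 to 1.05) and 0.992 for d14 over d7 (0.941 to 1.04).

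**Figure D2:**
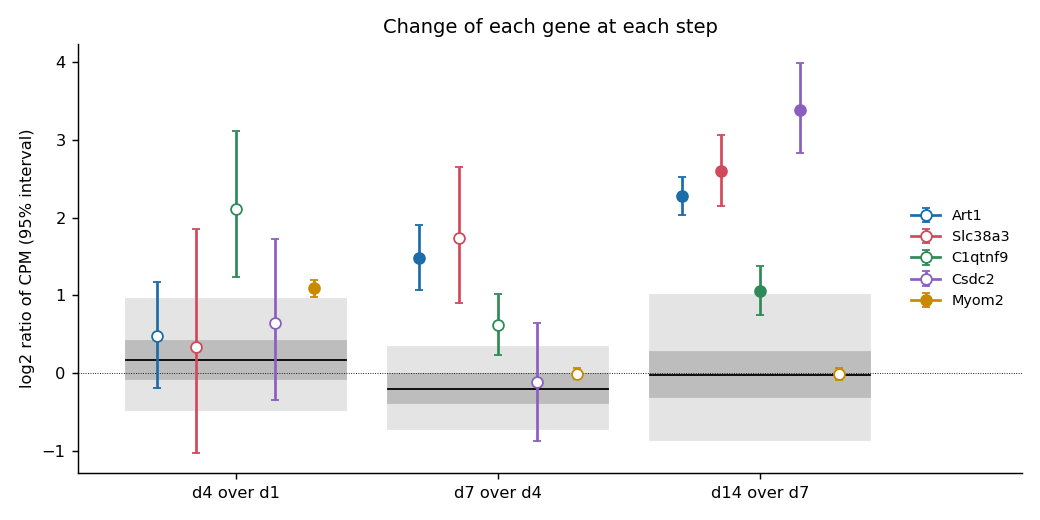
log2 ratios of CPM between consecutive sections for the 5 genes, with 95% intervals, over grey boxes that hold the 5th to 95th (light) and 25th to 75th (dark) percentiles of all genes tested and a line at their median. Filled points were called at least 2-fold higher and open points were not, and Csdc2 has the highest point, 3.38 for d14 over d7.

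Between d14 and d7, 4 of the 5 genes were called higher, where 5.04% of 6864 genes tested were called higher and 3.51% lower. The d14 section also chose the genes, so nothing is read from that count. The median log2 ratio of the 5 genes, whatever their level, was 2.27 at this step, against -0.02 over all genes tested. It was 0.64 at d4 over d1 and 0.62 at d7 over d4, against 0.17 and -0.20 over all genes tested. At those steps 1 and 3 of the 5 genes could be tested. The d1 and d14 sections chose the genes, so these medians are a description only. Leaving out the d7 section, d14 over d4 was 13.5-fold for Art1, 20.2-fold for Slc38a3 and 3.21-fold for C1qtnf9.

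A section holds several cell types, and fewer cells of a type cannot be told apart from less RNA per cell. Per 100000 UMIs of the cardiomyocyte reference list, Art1 stood at 16.7, 28.4, 64.7 and 289 UMIs at d1, d4, d7 and d14. Slc38a3 stood at 4.33, 6.69, 18.2 and 102, and Csdc2 at 7.42, 14.2, 10.7 and 103. C1qtnf9 stood at 7.42, 39.3, 49.4 and 94.8. Myom2 stood at 554, 1447, 1174 and 1075, highest at d4, and its ratio of d14 to d1 on this scale was 1.94, under the 2-fold line. On this scale too, Art1, Slc38a3 and Csdc2 had their largest log2 step between d7 and d14 and C1qtnf9 between d1 and d4.

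Other cell types changed in the same sections. The summed level of 10 fibroblast markers was 915, 1688, 2020 and 4503 CPM at d1, d4, d7 and d14. At d14, 8 of the 10, among them Dcn and Gsn, were higher than at d1, where 7.32% of all genes tested were. The 10 macrophage markers summed to 351, 292, 334 and 797 CPM. Of these, 6 could be tested at d14 over d7 and 5 were higher, where 5.04% of all genes tested were. The 10 mural markers of pericytes and smooth muscle summed to 1207, 1447, 1224 and 1792 CPM. Of these, 9 could be tested at d14 over d1 and 5 (Rgs5, Kcnj8, Pdgfrb, Myh11 and Tagln) were higher. The 10 endothelial markers summed to 833, 1133, 1070 and 1235 CPM, with 2 of 10 (Tie1 and Cldn5) higher at d14 than at d1. None of the markers in these 4 lists was at 0 in any section. The 7 adipocyte markers had 1, 0, 7 and 71 UMIs at d1, d4, d7 and d14, with 6, 7, 2 and 2 of them at 0. Of the 71, 54 were of Cfd, which lay in 7 spots with 37 UMIs in 1 of them. The 8 epicardial markers had 298, 885, 541 and 254 UMIs. The 12 skeletal muscle markers had 41, 61, 225 and 61 UMIs, and 5, 3, 1 and 3 of them were at 0. Leaving out every spot with a skeletal muscle UMI changed no call of the 5 genes between sections. The part of the other cell types in the rises was not tested.

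The label cardiomyocyte was checked across the spots of each section. In the 10% of d14 spots richest in cardiomyocyte reference UMIs (118 spots), the ratio to the other 1057 spots was 0.961 for Art1, 0.840 for Slc38a3, 0.959 for C1qtnf9, 0.973 for Csdc2 and 0.914 for Myom2. All 5 intervals contained 1, so at d14 no concentration of the genes in the spots with the most cardiomyocyte RNA was detectable at this depth. At d4, C1qtnf9 had 17 of its 94 UMIs in the cardiomyocyte-rich spots, at 29.7 CPM against 14.6 CPM in the rest, and was called higher with a ratio of 2.03 (1.13 to 3.47). It was the only member called higher in these spots, of 1, 2, 3 and 5 members that could be tested at d1, d4, d7 and d14, where 1.17%, 0.339%, 0.281% and 0.471% of all genes tested were called higher. At d4 Myom2 reached 767 CPM in such spots against 573 CPM in the rest, a ratio of 1.34 (1.21 to 1.48). The d4 ratios of Art1 (1.78), Slc38a3 (1.32) and Csdc2 (0.576) could not be tested, and their intervals contained 1. Csdc2 had 2 of its 34 d4 UMIs in cardiomyocyte-rich spots. In the 10% of d4 spots richest in fibroblast marker UMIs it had 16 and was called higher (7.40-fold). At d4 the Myom2 ratio was 0.338 in fibroblast-rich, 0.419 in macrophage-rich, 0.463 in mural-rich and 1.01 in endothelial-rich spots. In fibroblast-rich d14 spots the ratio was 0.476 (0.242 to 0.848) for Slc38a3 and 0.379 (0.171 to 0.732) for C1qtnf9. There it was 0.715 (0.613 to 0.831) for Myom2, and the intervals of Art1 (0.794) and Csdc2 (0.945) contained 1. A spot can hold several cell types, so these ratios cannot assign a transcript to a cell.

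The share of spots with a UMI of each gene was also taken. After each spot was thinned to 2500 UMIs, which left out 40, 3, 3 and 131 shallower spots, Art1 was detected in 2.47%, 1.67%, 6.23% and 28.4% of spots at d1, d4, d7 and d14. Slc38a3 was detected in 0.494%, 0.607%, 1.95% and 12.3%, C1qtnf9 in 0.988%, 3.79%, 5.58% and 11.0%, and Csdc2 in 0.494%, 0.910%, 1.43% and 11.4%. Myom2 was detected in 45.7%, 73.3%, 68.6% and 71.1%. Without thinning the d14 shares were 40.7% for Art1, 17.6% for Slc38a3, 16.4% for C1qtnf9, 17.2% for Csdc2 and 84.3% for Myom2. No spot held more than 5 UMIs of Art1 or 4 of Slc38a3, C1qtnf9 and Csdc2, and at d14 their UMIs came from 478, 207, 193 and 202 spots. Across the 1044 thinned d14 spots, which share 1 library, Spearman's rho between pairs of the 5 genes lay between -0.0019 and 0.0688.

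Whether the genes were lower where matrix genes were high was asked by setting the 10% of spots with the largest share of 20 matrix genes, such as Col1a1, Fn1 and Postn, against the other spots of each section. The d1, d4, d7 and d14 sections had 44, 66, 77 and 118 such matrix-rich spots. They are a range of a score, with 11 to 40 spots a section within 10% of the limit, and spot positions were not used. Their cardiomyocyte reference level was 0.705, 0.571, 0.514 and 0.637 times that of the rest at d1, d4, d7 and d14. Calls here also needed 20 UMIs of the gene. At d1 only Myom2 of the 5 genes could be tested, and it was not called, where 12.5% of genes tested were higher in matrix-rich spots and 3.03% were lower.

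Csdc2 was higher in matrix-rich spots than in the rest at d4, and was not called at d14. At d4, 16 of its 34 UMIs lay in matrix-rich spots, which held 12.6% of all UMIs. Its level was 21.7 CPM there and 3.52 CPM in the rest, 6.15-fold higher (2.93 to 12.8), and it was called higher at d4, when it and Myom2 were the 2 of the 5 genes that could be tested and 12.1% of all genes tested were called higher. At d7, 8 of 30 UMIs lay in matrix-rich spots, at 17.1 CPM against 4.31 CPM in the rest, a ratio of 3.96 (1.53 to 9.24) that was under 20 CPM and not called. At d14, 22 of 241 UMIs lay there, at 50.2 CPM against 56.6 CPM in the rest, a ratio of 0.887 (0.545 to 1.38). In the d14 Leiden cluster, a cluster of spots by expression with the largest matrix share, the ratio was 0.519 (0.286 to 0.875), and no call was made. The difference between d4 and d14 was not tested. At d1 Csdc2 had 0 UMIs in matrix-rich spots and 12 in the rest, where a count of 0 allows up to 3.

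The d4 matrix-rich spots were also rich in other cell types. They shared 44 of 66 spots with the most fibroblast-rich, 42 with the most macrophage-rich, 41 with the most mural-rich, 32 with the most atrial-rich and 27 with the most epicardial-rich 10% of spots. Csdc2 was 7.40-fold higher in the fibroblast-rich d4 spots than in the rest (3.53 to 15.4), 4.85-fold in the mural-rich (2.23 to 10.1), 4.05-fold in the macrophage-rich (1.78 to 8.64), 3.50-fold in the atrial-rich (1.49 to 7.59) and 3.35-fold in the epicardial-rich (1.37 to 7.41). The mural-, macrophage-, atrial- and epicardial-rich ratios rested on 13, 11, 10 and 9 UMIs in those spots, at under 20 CPM, and were not called. In the endothelial-rich d4 spots Csdc2 had 0 of its 34 UMIs. These spots held 7.39% of all UMIs, and the interval of the ratio (0 to 1.44) contained 1. The median depth was 11776 UMIs in matrix-rich and 7497 in other d4 spots. Which of these cell types carried the d4 Csdc2 UMIs was not tested. Outside matrix-rich spots Csdc2 was at 4.07, 3.52, 4.31 and 56.6 CPM at d1, d4, d7 and d14, so its d14 level over d7 was 13.1-fold (8.46 to 21.4) there.

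The d4 call rested on 16 UMIs and on the 20 CPM minimum. With the top 20% of spots the ratio was 6.77, and with the Leiden cluster of spots that had the largest matrix share it was 4.41, both with intervals above 1, but the level in those spots was under 20 CPM and the call ended.

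**Figure D3:**
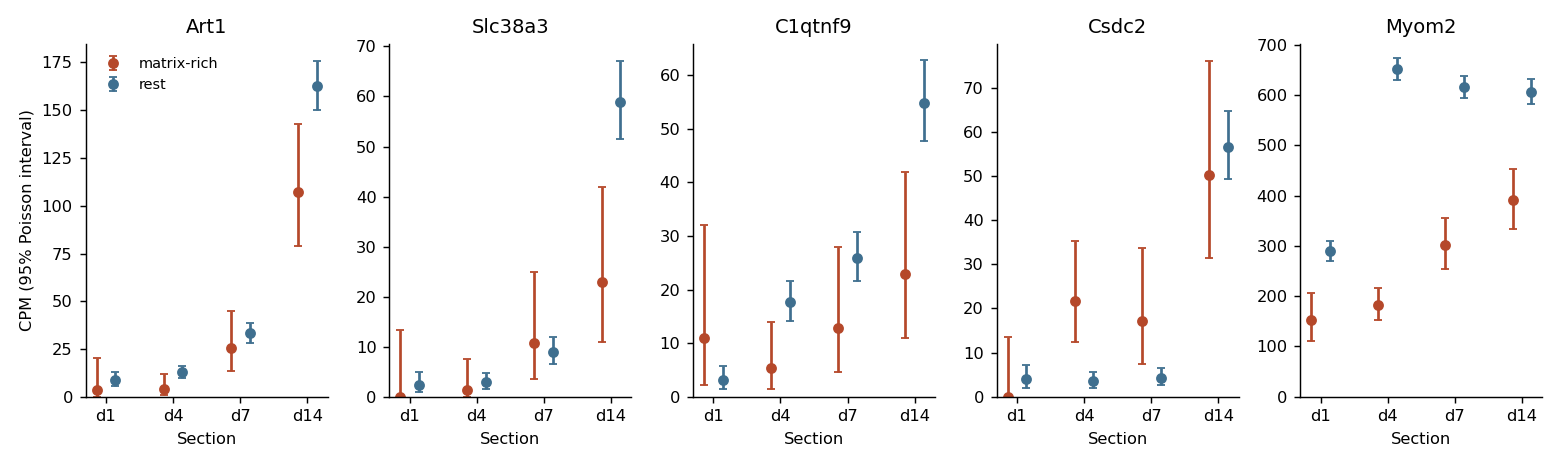
CPM of each gene in matrix-rich spots (left, red) and in the other spots (right, blue) of the d1, d4, d7 and d14 sections, with 95% Poisson intervals and a separate axis for each gene. Csdc2 is higher in matrix-rich spots at d4 (21.7 against 3.52 CPM) and overlaps with the rest at d14, while Myom2 is lower there in all 4 sections.

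Myom2 was lower in matrix-rich spots in every section, and the gap was widest at d4. Its level there was 153, 183, 301 and 391 CPM at d1, d4, d7 and d14, against 289, 651, 616 and 606 CPM in the rest. The ratios were 0.529, 0.281, 0.489 and 0.644, and none of the 4 intervals contained 1. It was called lower at d4 (0.235 to 0.334), where 7.77% of genes tested were called lower, and at d7 (0.410 to 0.579), where 4.39% were. Outside matrix-rich spots d4 over d1 was 2.25-fold (2.08 to 2.43), whereas in matrix-rich spots the d4 level over d1 was 1.19-fold (0.839 to 1.73). In matrix-rich spots d7 was 1.65-fold d4 (1.29 to 2.10) and d14 was 1.297-fold d7 (1.03 to 1.63). The difference between these spot classes was not tested.

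Set against cardiomyocyte reference UMIs in place of all UMIs, the Myom2 ratio of matrix-rich spots to the rest was 0.750, 0.492, 0.951 and 1.01 at d1, d4, d7 and d14. At d4 Myom2 was lower in matrix-rich spots also per cardiomyocyte reference UMI (0.411 to 0.584), and the d7 call was lost on this scale. The d4 gap also followed the matrix share in steps. In 5 equal bins of d4 spots from the lowest to the highest matrix share, Myom2 stood at 793, 708, 657, 574 and 316 CPM. In the d14 bins it stood at 584, 611, 613, 642 and 470 CPM, so that only the highest bin was low.

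**Figure D4:**
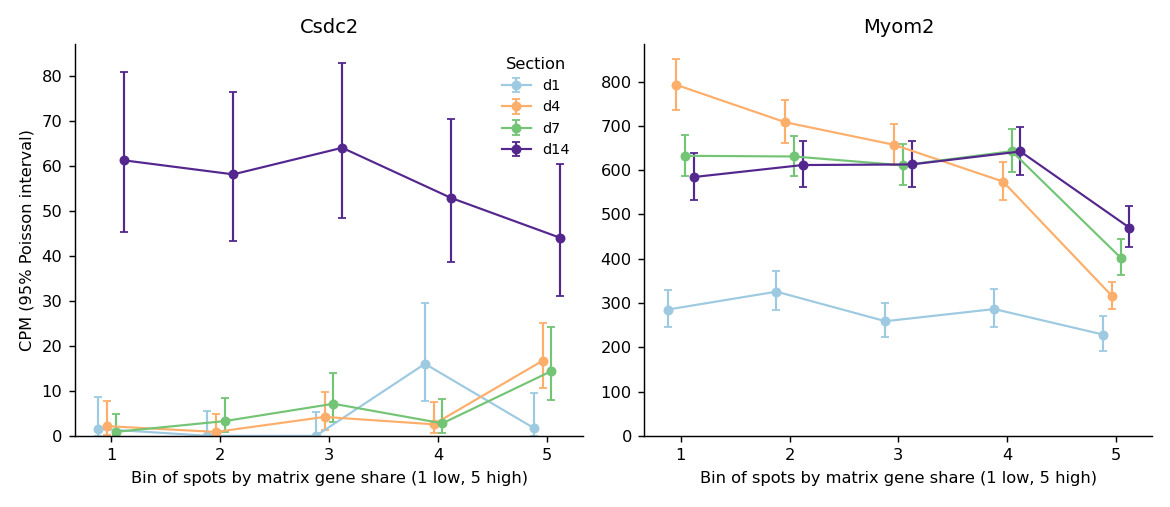
CPM of Csdc2 (left) and Myom2 (right) in 5 equal bins of spots ordered by the share of matrix genes, for the d1, d4, d7 and d14 sections, with 95% Poisson intervals. At d4 Myom2 declines from 793 to 316 CPM over the bins and Csdc2 is highest in bin 5 at 16.7 CPM, whereas at d14 Csdc2 lies between 44.0 and 64.0 CPM in all bins.

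The other 3 genes were sparse in matrix-rich spots before d14. Art1 had 1 of 27, 3 of 68, 12 of 181 and 47 of 676 UMIs there at d1, d4, d7 and d14. Its d14 level was 107 CPM in matrix-rich spots and 163 CPM in the rest, a ratio of 0.660 (0.480 to 0.888), close to the 0.637 of the reference list. Slc38a3 had 22.8 CPM in matrix-rich and 59.0 CPM in other d14 spots, a ratio of 0.387 (0.183 to 0.726). C1qtnf9 had 22.8 CPM in matrix-rich and 54.8 CPM in other d14 spots, a ratio of 0.417 (0.197 to 0.781). These 2 were the genes called lower at d14, where 2.41% of genes tested were called lower, each from 10 UMIs in matrix-rich spots. Both calls ended per cardiomyocyte reference UMI (0.608 for Slc38a3 and 0.654 for C1qtnf9) and with the top 20% of spots (0.664 and 0.599). The C1qtnf9 call also ended in the Leiden cluster (0.607).

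Most relatives of the 5 genes were not called at the steps at which the 5 rose. Over all genes tested, 4.69% were called higher at d4 over d1, 0.723% at d7 over d4 and 5.04% at d14 over d7. At d14 over d1 the share was 7.32%. Few calls are thus usual for any gene, and nothing is read from their absence in the families. The members of each family were listed by name and not by their values, though with earlier results of these data known. Of the 4 other ADP-ribosyltransferases measured, Art3, which is also expressed in muscle, fell to 67.9 CPM at d4, against 144 CPM at d1, where 1.44% of genes were called lower. Art3 then rose to 278 CPM at d14, against 83.1 CPM at d7, a ratio of 3.35 (3.00 to 3.73). Art4 had 5.03 to 7.90 CPM and Art5 2.57 to 9.06 CPM over the sections, and Art2b had 1 UMI in all. Adprhl1, a heart member of the ADP-ribosylhydrolase family, had 206, 208, 295 and 430 CPM at d1, d4, d7 and d14, and Itga7, the integrin chain modified by Art1, had 63.0, 86.2, 112 and 171 CPM. Both were higher at d14 than at d1, by 2.09-fold (1.91 to 2.28) and 2.72-fold (2.33 to 3.20).

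Of 10 other SLC38 transporters, 4 reached 20 CPM and none was higher at any step, where 0.723% to 7.32% of all genes tested were. Slc38a1 and Slc38a4, which carry neutral amino acids as system A transporters, were lower at d14 than at d1, where 6.07% of genes were called lower. Slc38a1 stood at 26.3 CPM at d14 against 63.9 CPM at d1 (ratio 0.411, interval 0.324 to 0.519) and Slc38a4 at 26.0 against 63.0 CPM (0.413, 0.325 to 0.523). Slc38a2 had 426, 369, 403 and 310 CPM over the 4 days without a call. Of 15 other genes of glutamine transport and metabolism, 11 reached 20 CPM and 2 were higher at d14 than at d7, where 5.04% of all genes tested were. Glul, which makes glutamine, stood at 246 CPM at d14 against 77.6 CPM at d7 (3.17-fold, 2.84 to 3.56), and the transporter gene Slc1a5 at 43.7 against 19.0 CPM (2.29-fold, 1.80 to 2.94). The alanine aminotransferase genes Gpt (2.002-fold) and Gpt2 (4.02-fold) were the 2 higher at d14 than at d1.

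In the C1q/TNF-related family, C1qtnf2 and C1qtnf12 were higher at d4 than at d1, at 22.9 against 5.58 CPM (4.11-fold, 2.50 to 7.14) and at 26.5 against 12.7 CPM (2.09-fold, 1.47 to 3.02). C1qtnf12 was lower again at d7, at 11.5 CPM against 26.5 CPM at d4, where 1.51% of genes were called lower. Of the 9 other measured members, 3 reached 20 CPM at d14 over d7. None of those was called higher, where 5.04% of all genes tested were. Below that minimum, C1qtnf1 stood at 12.3 CPM at d14 against 4.85 CPM at d7, a ratio of 2.54 (1.57 to 4.20), and adiponectin itself had 6 UMIs at d14 against 2 at d7. In matrix-rich spots C1qtnf2 and C1qtnf6 were higher than in the rest at d4, d7 and d14, by 2.64-fold to 3.72-fold and 2.33-fold to 6.01-fold. C1qtnf9 had ratios of 0.307, 0.495 and 0.417 on those days, from 4, 6 and 10 UMIs in these spots. Only its d14 ratio was called, and the d7 interval (0.179 to 1.11) contained 1. At d1 C1qtnf9 had 3 UMIs there and 9 in the rest, too few to be tested. The adiponectin receptor genes Adipor1 (139 to 155 CPM) and Adipor2 (58.5 to 93.0 CPM) and Cdh13, which encodes T-cadherin (125 to 184 CPM), were not called at any step.

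Of 6 other cold-shock domain genes, 4 reached 20 CPM and none was higher at any step, where 0.723% to 7.32% of all genes tested were. Ybx2, known from germ cells, was lower at d14, at 18.1 CPM against 38.1 CPM at d1 (0.475, 0.353 to 0.636). Ybx1 had 221 to 314 CPM over the sections. Carhsp1, the closest relative of Csdc2 by family, was higher in matrix-rich spots at d14 (3.10-fold, 2.31 to 4.11), where Csdc2 was not.

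Among M-band genes, Myom1, which encodes myomesin 1, had 413, 307, 321 and 443 CPM at d1, d4, d7 and d14 with no call, and Myom3 had at most 7 UMIs in a section. Of 14 other M-band and associated genes, 11 reached 20 CPM at d4 over d1, the step at which Myom2 rose. Of these 0 were called, where 4.69% of all genes tested were called higher and 1.44% lower. Trim54, a microtubule-binding muscle ring finger gene, rose at d14, to 105 CPM against 34.1 CPM at d7 (3.08-fold, 2.60 to 3.67). Cmya5 was higher at d14 than at d1 (162 against 59.2 CPM, 2.74-fold) and Obsl1 was lower (20.9 against 43.7 CPM, ratio 0.478).

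**Figure D5:**
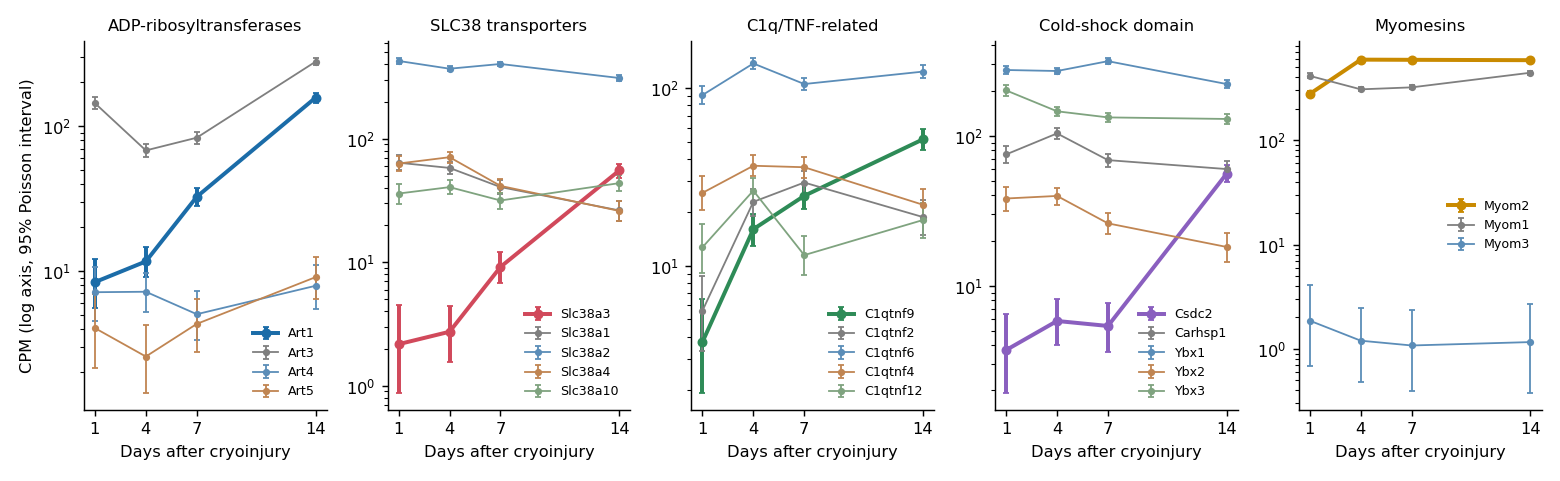
CPM over the 4 days on log axes with 95% Poisson intervals for each of the 5 genes (thick lines) and members of its family (thin lines). Art3 is lowest at d4 (67.9 CPM) and highest at d14 (278 CPM), Slc38a1 and Slc38a4 end at 26.3 and 26.0 CPM, and Myom1 has its lowest level, 307 CPM, at d4.

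Of 24 genes of mature cardiomyocytes, 1 was higher at d4 over d1, 1 at d7 over d4, 5 at d14 over d7 and 8 at d14 over d1, and none was lower at any of them. Over all genes tested 4.69%, 0.723%, 5.04% and 7.32% were called higher at these steps, and 23, 23, 24 and 24 of the 24 reached 20 CPM. Strit1, which encodes the sarcoplasmic reticulum micropeptide DWORF, was the gene called at each step, with 3.72, 21.4, 46.9 and 152 CPM at d1, d4, d7 and d14. Ckmt2, the mitochondrial creatine kinase of muscle, stood at 2336 CPM at d14 against 766 CPM at d7 (3.05-fold, 2.94 to 3.16). The summed level of the 24 genes was 75288, 69237, 86944 and 112012 CPM over the 4 days. The highest ratio of d14 to d7 among the 24 genes was the 3.24 of Strit1. The 11 reference genes had no call at any step.

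The genes with the nearest courses over the 4 sections came from several cell types. After Slc38a3, the nearest to Art1 were Hmcn2, Pi16, Ces1d and Vtn, at distances of 0.582 to 0.824, of which Pi16 is a fibroblast marker (3.41, 8.04, 24.8 and 122 CPM). Nearest to Slc38a3 after Art1 were Pi16, Ces1d, Hmcn2 and the water channel gene Aqp1. Nearest to Csdc2 were Shld1 (0.284), Rtn4r (0.312), Ces1d, Aqp1 and Gsn, the actin-severing gelsolin gene (349, 342, 269 and 2475 CPM). Nearest to C1qtnf9 were the pacemaker channel gene Hcn2 (0.348), Pcolce2, Pltp, H2-Ab1 and Plxdc2. Nearest to Myom2 were Myct1 (0.0432), Ier5, Nrp2, Sox7 and Cd248, several of them known from vessel cells. With 4 points to a profile such likeness is a description of these sections.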

How the data were processed

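Visium sections of 4 cryoinjured neonatal mouse hearts were compared, 1 at each of d1, d4, d7 and d14. The authors deposited raw UMI counts, which Space Ranger 1.3.0 wrote for each gene in each spot, per the file headers. The submitters' processing notes name the build mm10 and Seurat 4.1.1 without a role. How spots were selected before deposit, and whether strand was used, is not given in the sources used here. Of 32285 feature IDs, 32235 matched GENCODE vM21.

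Spots under 500 UMIs were left out (3, 3, 2 and 3 spots). Counts were summed per section or spot class and scaled to CPM after 10 haemoglobin and 13 mitochondrially encoded genes, with 5.51% to 12.4% of UMIs, had been taken out of the total. Levels have exact Poisson intervals, ratios exact conditional binomial intervals and shares exact Clopper-Pearson intervals, at 95%. A count of 0 allows up to 3 counts. The rule for calls was run on simulated data with 6593 to 6989 genes a comparison, and it recovered 98.5% to 99.5% of 3-fold changes. The simulated counts had Poisson error only, as the intervals assume, and no differences between animals or sections. This run therefore checks the calculation and not how the calls would hold in other hearts. Spots of 1 heart are no replicates, so no p-value was computed.

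The 5 genes, the 26 gene lists and the settings were chosen with earlier results of these data known. Genes named are the 5, the listed members of their families (1 cold-shock domain gene is not reported here), the 5 nearest profiles of each, and of every other list those with most UMIs or with calls, of which the examples were chosen after their values were seen. Art2a and Adprs were not matched by symbol. Alternatives were other scalings (TMM in edgeR 4.0.16, R 4.3.3), minimums, spot filters, spot classes and a Leiden clustering (scanpy 1.11.5, igraph 0.11.9, resolution 0.8, 15 components, 15 neighbours, 2000 variable genes). Leaving out the d7 section was added after seeing the data. Other tools were Python 3.11.15, numpy 2.4.6, scipy 1.17.1, pandas 2.3.3 and matplotlib 3.10.9.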

Additional observations from a re-analysis of the deposited data

Results flagged for a closer look

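The ratio of Csdc2 in matrix-rich spots to the other spots was 6.15 at d4 and 0.887 at d14, so the same contrast lay on opposite sides of 1 in these sections, although the d14 interval (0.545 to 1.38) contained 1. The d4 value rests on 16 of 34 UMIs and the d14 value on 22 of 241 UMIs. The difference between the days was not tested, since each day has 1 section. The d4 ratio lay between 4.41 and 10.8 and the d14 ratio between 0.519 and 1.39 over 9 alternatives each.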

How the results depend on the processing

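No paired analysis was possible because each time point had 1 section. With 1 section a day, no result has a replicate check, and sparse genes set the limit: a count of 0 allows 0.513 to 0.930 CPM over a section. TMM scaling moved the median log2 ratio of all genes by -0.19 at d4 over d1 and by 0.21 at d7 over d4, and the cardiomyocyte reference denominator by 0.30 and -0.30. Under TMM, 0 of the 5 genes were higher at d4 over d1 (1 with CPM), 207 genes were higher and 158 lower at that step (341 and 105), and 48 were lower at d7 over d4 (109). With a 10 CPM minimum, 599 genes were higher and 177 lower at d4 over d1, 82 and 250 at d7 over d4 (52 higher with 20 CPM), and 408 and 698 were lower at d14 over d7 and d14 over d1 (241 and 424). With a 50 CPM minimum the higher and lower counts were 142 and 48, 23 and 41, 198 and 107, and 295 and 191, in the order d4 over d1, d7 over d4, d14 over d7 and d14 over d1. With no CPM minimum and 20 UMIs they were 1012 and 276, 183 and 569, 739 and 773, and 1019 and 999. Fewer or more genes reach these minimums by construction.

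In matrix-rich spots, the number of the 5 genes called higher at d4 was 0 with the top 20% of spots and in the Leiden cluster (1 otherwise), and at d7 it was 1 with the top 5% of spots and with the injury list. The number called lower at d1 was 1 with the top 5% of spots, the injury list, without spots holding a skeletal muscle UMI and in the Leiden cluster, which held 15 spots at d1. At d7 it was 0 with the top 20% of spots, the fibroblast list, means over spots, without spots holding a skeletal muscle UMI and per cardiomyocyte reference UMI, and 2 in the Leiden cluster. At d14 it was 0 with the top 20% of spots and per cardiomyocyte reference UMI. The cause of these changes was not tested. No value changed direction past a call under any alternative run. The ratio of d14 to d7 lay between 4.46 and 13.5 for Art1, 5.57 and 20.2 for Slc38a3, 9.59 and 14.9 for Csdc2, 1.79 and 3.21 for C1qtnf9 and 0.915 and 1.03 for Myom2, the d14 over d4 ratio included.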

Other observations

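A list of 7 genes of immature cardiomyocytes, all above 20 CPM, moved in both directions. At d4, the step at which Myom2 rose, 4 of the 7 (Acta1, Nppa, Ankrd1 and Myl4) were higher than at d1, where 4.69% of all genes tested were. At d7, when Art1 was first called, 4 of the 7 (Nppa, Myl4, Myh7 and Tnni1) were lower than at d4, where 1.51% of all genes were. At d14, 4 (Ankrd1, Myl4, Myh7 and Tnni1) were lower and Nppa was higher than at d7, where 3.51% of all genes were lower and 5.04% higher. At d14 over d1, 1 of the 7 (Acta1) was higher and 3 (Myl4, Myh7 and Tnni1) were lower. Over all genes tested, 7.32% were higher and 6.07% lower there. Tnni1, the slow skeletal troponin I of the fetal heart, stood at 2242, 1644, 571 and 6.74 CPM at d1, d4, d7 and d14, and Myh7, the beta myosin heavy chain, at 2700, 3765, 1247 and 348 CPM. These are values of 1 section a day, and their relation to the rises of the 5 genes was not tested.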
